A study of Homo sapiens with 9 samples.

Results

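Enzymes of drug and lipid metabolism are a hallmark of liver cells, and peaks of the chromatin remodeling complex SWI/SNF were collected here for the genes of 8 enzyme groups. These were cytochromes P450 (CYP), UDP-glucuronosyltransferases (UGT), sulfotransferases (SULT), glutathione S-transferases (GST), alcohol dehydrogenases (ADH) and aldehyde dehydrogenases (ALDH). The glutathione S-transferases were those named GSTA, GSTM, GSTP, GSTT, GSTO, GSTK or GSTZ. A peak was taken when the nearest gene recorded for it in the deposited lists was among these by name. This gave 149 of the 34575 peaks in 3 lists, under 58 gene names, of which 57 were found in the reference annotation and 52 were protein-coding there. The lists held 43 of 12852 peaks for ARID1A, 56 of 8728 for ARID1B and 50 of 12995 for ARID2.

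The peaks came from untreated HepG2 cells, an established human hepatocellular carcinoma line, in which chromatin immunoprecipitation and sequencing (ChIP-seq) was done with antibodies to ARID1A, ARID1B, ARID2 and SNF5. ARID1A, ARID1B and ARID2 replace each other in SWI/SNF and mark separate forms of it, and SNF5 is a core subunit. Each antibody was used on 2 samples with 1 input sample beside them, and the 2 samples were merged before peaks were called, so the lists hold no replicate values. HepG2 is a single tumour line and not normal liver, and a peak list records where a protein was called, not how active a gene was.

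Drug metabolism runs in phases. In phase I, CYP enzymes oxidise a drug or lipid, and ADH and ALDH enzymes carry alcohols to aldehydes and on to acids. In phase II, UGT, SULT and GST enzymes attach glucuronic acid, sulfate or glutathione, which makes the product soluble for export.

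Member peaks that overlapped between lists were merged, without peaks recorded under other genes. This gave 109 separate regions, and 8 of them held a member peak of every ARID. The stretches below are where the 3 ARID peaks overlapped at 7 of these regions, shown because all 3 forms were called there with the enzyme gene as the recorded nearest gene. They were read from GRCh37 (hg19) on the strand of the named gene, 5′ to 3′. Bases annotated as untranslated region were left out, and promoter in a label is the class of the deposited lists. At CYP20A1 the overlap of the 3 ARID peaks lies in an exon, with 72 of its 167 bases annotated as coding. Capitals mark the letters GGGCGG (GC box) or GTTAAT (HNF1), on either strand.
GSTZ1 promoter, chr14:77787527-77787579, plus strand: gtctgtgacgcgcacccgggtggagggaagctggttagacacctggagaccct
CYP20A1 promoter, chr2:204103786-204103938, plus strand: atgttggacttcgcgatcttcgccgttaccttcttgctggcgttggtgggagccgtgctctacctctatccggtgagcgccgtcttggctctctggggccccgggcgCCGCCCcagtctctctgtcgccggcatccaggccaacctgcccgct
ADH4 promoter, chr4:100078705-100078858, minus strand: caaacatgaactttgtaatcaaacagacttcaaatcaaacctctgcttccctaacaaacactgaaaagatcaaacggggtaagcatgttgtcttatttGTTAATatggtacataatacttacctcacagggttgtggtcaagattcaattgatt
SULT1A4 promoter, chr16:29471986-29472078, plus strand: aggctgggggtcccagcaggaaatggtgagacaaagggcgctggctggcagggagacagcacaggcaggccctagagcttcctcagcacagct
SULT1A3 promoter, chr16:30211141-30211180, plus strand: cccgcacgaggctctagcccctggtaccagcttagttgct
CYP24A1, distal region, chr20:52749678-52749732, minus strand: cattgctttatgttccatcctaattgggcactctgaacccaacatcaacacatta
CYP3A5, distal region, chr7:99291300-99291395, minus strand: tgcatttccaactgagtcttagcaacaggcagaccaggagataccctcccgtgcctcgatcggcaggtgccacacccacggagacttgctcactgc

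These stretches differed in base composition. GC content was 66% at CYP20A1, 64.2% at GSTZ1 and 35.1% at ADH4, and the printed bases held 15, 3 and 1 CpG dinucleotides. The ADH4 stretch, at a gene whose enzyme oxidises retinol and ethanol in liver, thus lacked the CpG-rich sequence of the CYP20A1 stretch. The 2 distal stretches, at CYP24A1 and CYP3A5, were chosen for printing after their values were seen.

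Over all member peaks, 84 were in the promoter class of the deposited lists, in which no peak of any gene lay more than 998 bp from a transcription start site (TSS), and 65 were in introns, exons or distal sequence. Of the 58 gene names, 40 had a promoter peak in at least 1 list. An ARID1A peak was listed for 31 names, an ARID1B peak for 38 and an ARID2 peak for 36. Peaks in all 3 lists were found for 13 names, in 2 lists for 21 and in 1 list for 24. Of the names found in 1 list, 15 had ARID1B, 6 ARID2 and 3 ARID1A. The same split was not made over all gene names. By position, 11 of 136 protein-coding genes of these families had ARID1B and no other ARID within 5000 bp (8.09%), beside 2.91% of all protein-coding genes. All 3 ARIDs were near 17 of the 136 (12.5%), beside 16.7%.

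**Figure D1:**
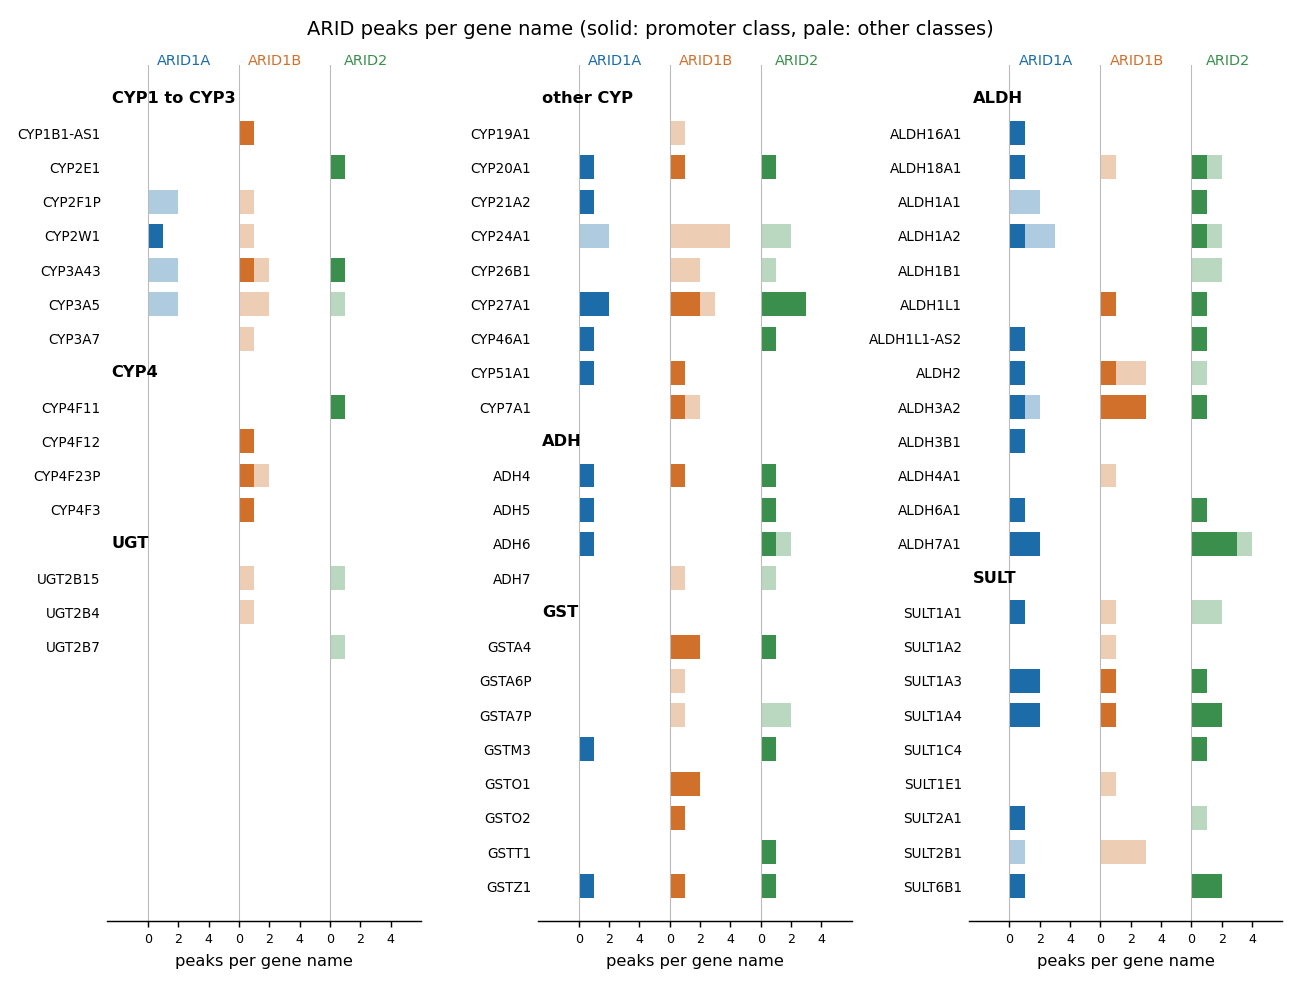
Number of peaks for the gene names, 1 of the 58 left out (x axis, peaks per gene name, restarted for each list), in the ARID1A, ARID1B and ARID2 lists, by enzyme group; solid bars are promoter peaks and pale bars peaks of other classes. CYP24A1 has 8 pale peaks and CYP27A1 7 solid ones, and UGT names have no solid bar.

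The CYP1 to CYP3 families hold the main enzymes of drug oxidation. They had 19 peaks under 8 names, of which 5 were promoter peaks, 8 intronic and 6 distal, and 9 overlapped an SNF5 peak. The list with most of these peaks was ARID1B, with 9, followed by ARID1A with 7 and ARID2 with 3. The median distance to the TSS was 5225 bp, against 85.5 bp for the GST peaks, the group nearest to start sites.

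CYP3A43 and CYP3A5 had the most peaks in this group, 5 each, and both were in all 3 lists. CYP3A5, with CYP3A4 and the fetal form CYP3A7, oxidises a large share of common drugs. Its peaks were all distal. An ARID1A peak of 181 bp (chr7:99291300-99291480), an ARID1B peak of 119 bp (chr7:99291277-99291395) and an ARID2 peak of 164 bp (chr7:99291267-99291430) overlapped 13712 to 13766 bp upstream of CYP3A5, at the distal stretch printed above. No SNF5 peak overlapped them, and the nearest lay between 210 and 243 bp away. It was the only region with all 3 ARIDs among the 8 that lacked an SNF5 peak. At 14742 to 14796 bp upstream, an ARID1A peak of 53 bp and an ARID1B peak of 429 bp overlapped an SNF5 peak of 703 bp with a score of 41, where the score is the value the peak caller wrote for a peak. In the reference annotation these peaks also lie within the pseudogene CYP3A51P and the readthrough CYP3A7-CYP3A51P.

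CYP3A43, a minor member of the same cluster, had its overlapping peaks inside the gene. ARID1A peaks of 53 and 169 bp and an ARID1B peak of 452 bp (chr7:99458113-99458564) lay between 5027 and 5642 bp from the nearest TSS and shared an SNF5 peak of 1415 bp with a score of 40. Of the 218 possible 50-base reads at the 169 bp peak, 65.6% occur at 1 place in the genome. The CYP3A43 promoter had an ARID2 peak 609 bp and an ARID1B peak 431 bp from the TSS, neither with SNF5 overlap. CYP3A7 had 1 intronic ARID1B peak of 142 bp, 5384 bp from the TSS, without an SNF5 peak.

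Promoter peaks at drug-oxidising CYP genes were few. CYP2E1, which oxidises ethanol and paracetamol, had an ARID2 peak of 96 bp at its TSS (chr10:135333886-135333981), over an SNF5 peak of 149 bp with a score of 19. The peak at the antisense gene CYP1B1-AS1 (ARID1B, 157 bp) lies within CYP1B1 and less than 1000 bp from a CYP1B1 start site.

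Among a list of 30 pharmacogenes, 12 had a peak in any ARID list, beside 40.8% of the 20149 protein-coding names in the reference annotation, and 18 had none by recorded name: CYP1A1, CYP1A2, CYP1B1, CYP2B6, CYP2C8, CYP2C19, CYP2D6, CYP3A4, UGT1A1, UGT1A6, UGT1A9, GSTA1, GSTM1, GSTP1, ADH1A, ADH1B, ADH1C and ALDH3A1. CYP3A4 and CYP2D6, which metabolise many prescribed drugs, were thus among the names without a peak. The 40.8% can be too low, because a gene named differently in the deposited lists and the reference annotation counts as having no peak. Of these 18, CYP1B1, CYP2C19, UGT1A1, UGT1A6 and UGT1A9 had an ARID peak within 5000 bp of the gene that was recorded under another name.

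The CYP4 family, which oxidises fatty acids, had 5 peaks under 4 names, 4 of them at promoters. CYP4F23P, a pseudogene, had the most, with 2 ARID1B peaks of 52 and 95 bp and no SNF5 overlap. The coding genes CYP4F3 and CYP4F12 each had 1 ARID1B promoter peak, of 472 and 83 bp, within SNF5 peaks scored 23 and 29.

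The other CYP genes, mostly of sterol, bile acid, vitamin and steroid metabolism, had 30 peaks under 9 names, of which 16 were at promoters and 21 (70%) overlapped SNF5. CYP24A1 and CYP27A1 had 8 peaks each, the most of any gene name.

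CYP24A1, which inactivates vitamin D, had no promoter peak in any ARID list. Its 8 peaks were all distal and all overlapped SNF5. In the region at 33521 to 33788 bp from the nearest TSS, the ARID1A peak was 797 bp, the ARID1B peak 860 bp and the ARID2 peak 508 bp, and the SNF5 peak was 1814 bp with a score of 32. In the region at 23826 to 24150 bp, 1 ARID1A peak (297 bp), 2 ARID1B peaks (95 and 119 bp) and 1 ARID2 peak (295 bp) lay on an SNF5 peak of 1354 bp with a score of 41. A further ARID1B peak of 211 bp lay 41204 bp away over an SNF5 peak scored 17. In the reference annotation all 8 are past the 3′ end of the gene, between 40516 and 57894 bp from its start. The CYP24A1 start itself had 2 SNF5 peaks, of 446 and 523 bp, both with a score of 13, and no ARID peak.

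CYP27A1, the mitochondrial sterol 27-hydroxylase of bile acid synthesis, showed the opposite arrangement. Of its 8 peaks, 7 were promoter peaks: 2 of ARID1A (130 and 220 bp), 2 of ARID1B (246 and 143 bp) and 3 of ARID2 (83, 155 and 327 bp). All but the 143 bp ARID1B peak overlapped 1 SNF5 peak of 2869 bp with a score of 25. The only overlap between ARIDs there was between the 220 bp ARID1A peak and the 246 bp ARID1B peak, so the ARID2 peaks counted as single although they shared the SNF5 peak. The remaining peak, of ARID1B, was 9701 bp from the TSS and had no SNF5 overlap.

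CYP20A1, an orphan P450 of unknown substrate, had 3 overlapping promoter peaks: 389 bp for ARID1A, 333 bp for ARID2 and 167 bp for ARID1B, over an SNF5 peak of 572 bp scored 18. The widest ARID1A member peak, of 894 bp (chr7:91763614-91764507), was at the start of CYP51A1, the lanosterol demethylase of cholesterol synthesis, where ARID1B had a peak of 52 bp and SNF5 a peak of 999 bp scored 25. At CYP7A1, the rate-limiting enzyme of bile acid synthesis, the list held 2 ARID1B peaks of 207 and 182 bp, the second of them at the promoter, and no SNF5 overlap.

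**Figure D2:**
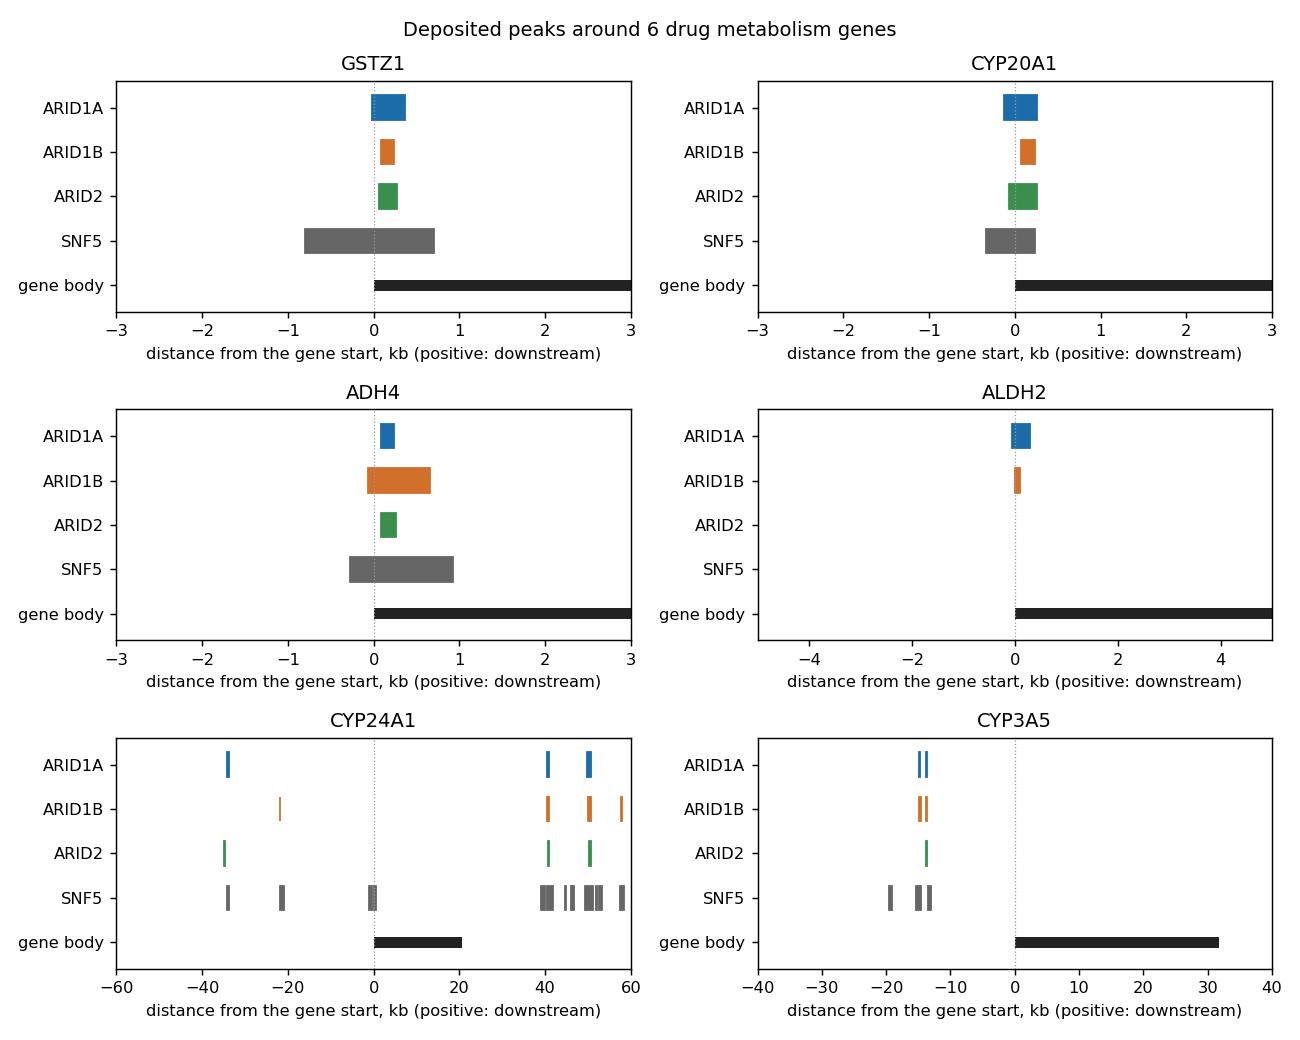
Called peaks of ARID1A, ARID1B, ARID2 and SNF5 (rows) around 6 genes, against distance from the gene start in kb, positive downstream, with the gene body in black; the scale differs between panels. All 3 ARIDs sit on the starts of GSTZ1, CYP20A1 and ADH4, ARID1A and ARID1B on that of ALDH2, and CYP24A1 and CYP3A5 have ARID peaks only away from the gene start.

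The ADH family had 10 peaks under 4 names, 7 of them at promoters and 7 over SNF5. ADH4 and ADH6 had the most, with 3 each. At ADH4, an ARID1B peak of 723 bp (chr4:100078289-100079011) contained the 155 bp ARID1A and 172 bp ARID2 peaks, and the SNF5 peak was 1209 bp with a score of 33. In the reference annotation they lie on a non-coding first exon and an intron of ADH4 and within a long non-coding RNA gene. At ADH6, an ARID1A peak of 122 bp and an ARID2 peak of 198 bp lay on 1 SNF5 peak of 912 bp without overlapping each other, and a further ARID2 peak of 202 bp lay in an intron. ADH5, which also clears formaldehyde, had ARID1A (96 bp) and ARID2 (209 bp) promoter peaks over an SNF5 peak of 592 bp scored 16. ADH1A, ADH1B and ADH1C, the main ethanol-oxidising enzymes of liver, had no peak.

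The ALDH family had the most peaks of the 8 groups, 40 under 13 names, with 25 at promoters and 24 (60%) over SNF5. ARID1A had 15 of them, ARID1B 9 and ARID2 16. ALDH3A2, which oxidises fatty aldehydes, and ALDH7A1, of lysine breakdown, had 6 each. At ALDH3A2, an ARID1A peak of 531 bp overlapped an ARID2 peak of 155 bp at the start of the gene on an SNF5 peak of 3388 bp with a score of 24, the widest over any member. ARID1B peaks of 446 and 129 bp and an ARID1A peak of 238 bp lay on another SNF5 peak, of 1981 bp, with their centres 11508 to 12607 bp into the gene. At ALDH7A1, the 2 ARID1A and 4 ARID2 peaks did not overlap each other, and 2 of the 6 touched an SNF5 peak, of 303 bp and scored 25.

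ALDH2, the mitochondrial enzyme that clears acetaldehyde, had an ARID1A peak of 358 bp (chr12:112204635-112204992) that held a 100 bp ARID1B peak at the TSS, with no SNF5 peak nearer than 6711 bp. An ARID2 peak of 173 bp and an ARID1B peak of 174 bp overlapped in an intron 7201 to 7280 bp downstream, over an SNF5 peak of 780 bp scored 19, and a further ARID1B peak of 65 bp had none. SNF5 at ALDH2 was therefore called at the intronic pair and not at the start of the gene. At ALDH18A1, which makes proline precursors, the ARID2 promoter peak of 848 bp was the widest ARID2 member peak and held the 405 bp ARID1A peak, while ARID1B had an intronic peak of 379 bp over an SNF5 peak scored 32. ALDH1A1, which oxidises retinal, had intronic ARID1A peaks of 70 and 164 bp, 30238 and 41134 bp from the nearest TSS, and an ARID2 promoter peak of 139 bp. These 3 overlapped separate SNF5 peaks scored 24, 26 and 20.

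In phase II, the UGT family had 4 peaks under 3 names and none at a promoter. UGT2B15, which conjugates androgens and drugs such as oxazepam, had the widest ARID1B member peak, of 1060 bp (chr4:69522023-69523082), and an ARID2 peak of 176 bp, both intronic and 13791 and 14604 bp from the TSS. They lay on an SNF5 peak of 1271 bp with a score of 43, the highest over any member. Of the 50-base reads possible at the ARID1B peak, 73.7% are unique. UGT2B7, which conjugates morphine, had 1 intronic ARID2 peak of 232 bp without SNF5 overlap. The 9 coding genes of the UGT1A cluster share their last exons, and the only ARID peak within it was an ARID2 peak of 59 bp (chr2:234665567-234665625) recorded under another name.

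The SULT family had 25 peaks under 9 names, of which 15 were at promoters and 21 (84%) overlapped SNF5. Over whole lists this share ran from 62.9% (ARID1B) to 71.3% (ARID1A). All peaks of SULT1A1, SULT1A2, SULT1A3 and SULT1A4 (4, 1, 4 and 5) overlapped SNF5. Of these, only the ARID1A peak at SULT1A1 holds unique 50-base reads. The 84% therefore rests largely on peaks whose reads match several places. Elsewhere SNF5 overlapped 1 of 1 peak at SULT1E1 and 2 of 2 at SULT2A1. It overlapped 2 of 4 at SULT2B1, 2 of 3 at SULT6B1 and 0 of 1 at SULT1C4. SULT1A4, with 5 peaks, and SULT1A3, with 4, led the group. These genes are near-identical copies of the sulfotransferase for catecholamines, and over 2500 bp around their starts they differed by 1 base (99.96% identity). No 50-base read from any of their 9 peaks is unique in the genome, so reads of the 2 genes could not be told apart. The peaks did not fall at the same places in the copies. Counted along the aligned copies, the ARID1B peak covered bases 599 to 1408 at SULT1A3 and 740 to 1372 at SULT1A4, and the SNF5 peaks were 1315 bp scored 33 and 1842 bp scored 39. The 9 peaks are therefore uncertain as to gene.

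SULT1A1, the main phenol sulfotransferase of liver, had peaks in all 3 lists. The ARID1A peak, of 69 bp, was at a promoter (chr16:28621243-28621311) over an SNF5 peak of 1276 bp. The ARID1B peak (171 bp) and an ARID2 peak (125 bp) overlapped in an exon further upstream over an SNF5 peak of 1030 bp, and a second ARID2 peak had 52 bp. The ARID1B and ARID2 peaks hold no unique 50-base read, as does the single ARID1B peak at SULT1A2. SULT2A1, which sulfates bile acids and DHEA, had a 205 bp ARID1A promoter peak and a 52 bp ARID2 peak 5632 bp away, over SNF5 peaks that both scored 17. Over all members, 120 of the 149 peaks held only unique 50-base reads and 14 held none, the latter all of SULT1A genes but 1, an ARID1B peak far from CYP26B1. Without these 14 the lists held 39, 51 and 45 member peaks for ARID1A, ARID1B and ARID2.

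The GST group had 16 peaks under 8 names, 12 at promoters and 13 (81.2%) over SNF5. GSTA4, which detoxifies the lipid peroxidation product 4-hydroxynonenal, GSTA7P, a pseudogene, and GSTZ1, of tyrosine breakdown, had 3 each. At GSTZ1, peaks of 382 bp for ARID1A, 219 bp for ARID2 and 156 bp for ARID1B were nested over an SNF5 peak of 1497 bp scored 21. A start site of POMT2 lies within 1000 bp of them. At GSTA4, an ARID2 peak of 669 bp held an ARID1B peak of 108 bp, with another ARID1B peak of 151 bp beside them and an SNF5 peak of 1963 bp over all 3. Further peaks of ARID1A, ARID1B and ARID2 on the same SNF5 peak were recorded under the small RNA gene RN7SK. An ARID1A peak of 758 bp among them overlapped the 669 bp ARID2 peak and the 108 bp ARID1B peak. GSTT1, which conjugates small halogenated compounds, had an ARID2 promoter peak of 434 bp over an SNF5 peak of 890 bp scored 15.

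The members were next compared between lists by class, to ask whether the ARIDs were called at the same parts of these genes. Promoter peaks made up 29 of 43 ARID1A member peaks (67.4%, 95% Wilson interval 52.5 to 79.5), beside 72.6% of the whole ARID1A list. They made up 24 of 56 for ARID1B (42.9%, 30.8 to 55.9), beside 37.9% of that list, and 31 of 50 for ARID2 (62.0%, 48.2 to 74.1), beside 67.0%. The members followed their lists, with a lower promoter share for ARID1B. In two-sided Fisher exact tests between member sets, the odds ratio was 2.76 for ARID1A against ARID1B (p = 0.025, Benjamini-Hochberg adjusted p = 0.074 over 3 tests), 0.46 for ARID1B against ARID2 (adjusted p = 0.082) and 1.27 for ARID1A against ARID2 (adjusted p = 0.67). None of the 3 passed an adjusted p of 0.05. With a distance of at most 500 bp in place of the class, the ARID1A against ARID1B and ARID1B against ARID2 differences passed the Fisher exact test (adjusted p = 0.012 and 0.046), and so did the former when peaks within 1000 bp were joined (adjusted p = 0.048). Over all 9 alternatives the adjusted p of these 2 differences ran from 0.012 to 0.79 and from 0.046 to 0.79. Peaks are not replicates and share loci, so these tests compare the deposited lists only.

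ARID1A members had a median distance to the TSS of 208 bp, ARID1B members of 2887.5 bp and ARID2 members of 462 bp, and the whole lists had 235, 2636 and 423 bp. Peaks farther than 10000 bp numbered 6 for ARID1A (14%, beside 8.82% of the whole list), 16 for ARID1B (28.6%, beside 28.3%) and 8 for ARID2 (16%, beside 10%). Each of these whole-list shares lay within the Wilson interval of the members. The farthest was an ARID1B peak 75236 bp from CYP26B1, which breaks down retinoic acid. Median widths were 181, 169 and 176.5 bp.

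**Figure D3:**
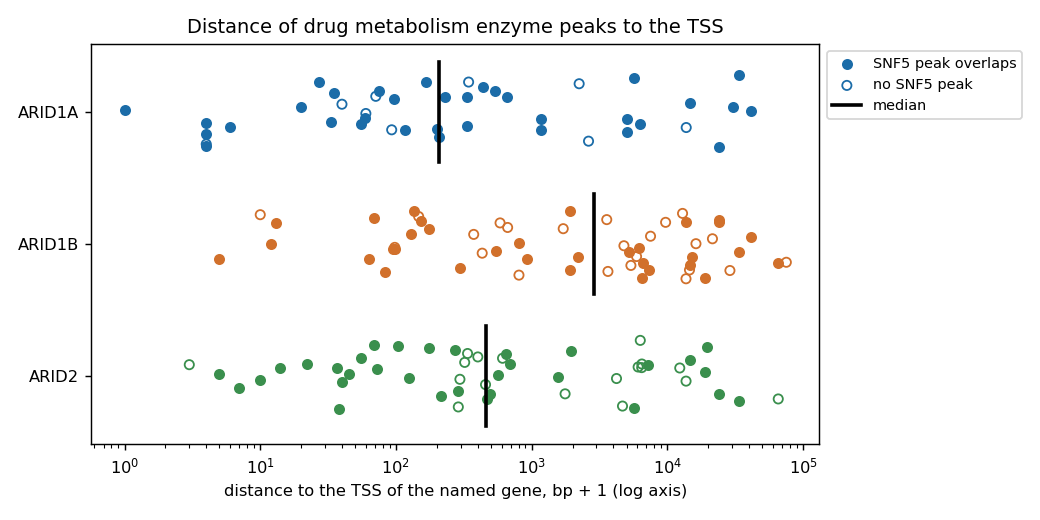
Distance of each member peak to the TSS of its gene, in bp plus 1 on a log axis, for the ARID1A, ARID1B and ARID2 lists (rows, points spread vertically to separate them); filled points overlap an SNF5 peak, open points do not, and the black bar is the median. ARID1B has its median at 2887.5 bp, to the right of ARID1A at 208 bp and ARID2 at 462 bp.

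SNF5 overlap was used to ask where the core subunit was called with an ARID. In all, 99 of the 149 member peaks overlapped 50 separate SNF5 peaks by at least 1 bp. The share was 34 of 43 for ARID1A (79.1%, 64.8 to 88.6), beside 71.3% of all ARID1A peaks. It was 33 of 56 for ARID1B (58.9%, 45.9 to 70.8), beside 62.9%, and 32 of 50 for ARID2 (64.0%, 50.1 to 75.9), beside 67.2%. Each whole-list share lay within the interval of the members. Of the 50 member peaks without SNF5 overlap, 23 had an SNF5 peak at most 1000 bp away.

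Within a list, SNF5 overlap was then compared between classes, again with peaks that share loci and are not replicates. At promoter peaks it was 23 of 29 for ARID1A, 16 of 24 for ARID1B and 23 of 31 for ARID2, and at the other classes 11 of 14, 17 of 32 and 9 of 19. No difference passed two-sided Fisher exact tests (adjusted p = 1, 0.62 and 0.22). For ARID1A the direction turned under several alternatives given in the closing section.

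Peaks that overlapped a peak of another ARID are called multiple here and the rest single, which gave the deposited label for all 149 members. Multiple peaks were 27 of 43 for ARID1A (62.8%, 47.9 to 75.6), 20 of 56 for ARID1B (35.7%, 24.5 to 48.8) and 23 of 50 for ARID2 (46.0%, 33 to 59.6), beside 47.6%, 40.1% and 46.9% of the whole lists. For ARID1A the whole-list share lay just below the interval of the members.

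SNF5 overlap was higher at multiple than at single member peaks in the ARID1B and ARID2 lists. Peaks are not replicates, and several share a locus or an SNF5 peak, so the tests below describe the deposited lists only. For ARID1B, 18 of 20 multiple peaks and 15 of 36 single peaks overlapped SNF5, at 90% and 41.7% (odds ratio 12.6, two-sided Fisher exact test, adjusted p = 0.0016). For ARID2 it was 19 of 23 and 13 of 27, at 82.6% and 48.1% (odds ratio 5.12, Fisher exact test, adjusted p = 0.027). For ARID1A, with 22 of 27 and 12 of 16, the difference did not pass (odds ratio 1.47, Fisher exact test, adjusted p = 0.71), and the difference between the lists was not tested. Over the whole lists the shares were 89% and 55.1% for ARID1A, 90.4% and 44.5% for ARID1B and 88.4% and 48.5% for ARID2, so the ARID1B and ARID2 members lay near their lists. Multiple peaks were also wider, with median widths of 238 and 135 bp (multiple and single) in the ARID1A list, 182 and 148 bp in the ARID1B list and 209 and 139 bp in the ARID2 list, and the part of width in the overlap was not tested. In the same Fisher exact tests, the ARID2 call was lost without CYP24A1 (adjusted p = 0.052), without peaks lacking unique reads (0.052) and without the ALDH family (0.39). Neither call held in exact tests on peaks within 5000 bp of the TSS (adjusted p = 0.07 for both) or with a reciprocal overlap of 50% (adjusted p = 1), which turned the ARID1B direction; over all 10 alternatives the adjusted p ran from 0.00014 to 1 for ARID1B and from 0.00071 to 1 for ARID2.

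**Figure D4:**
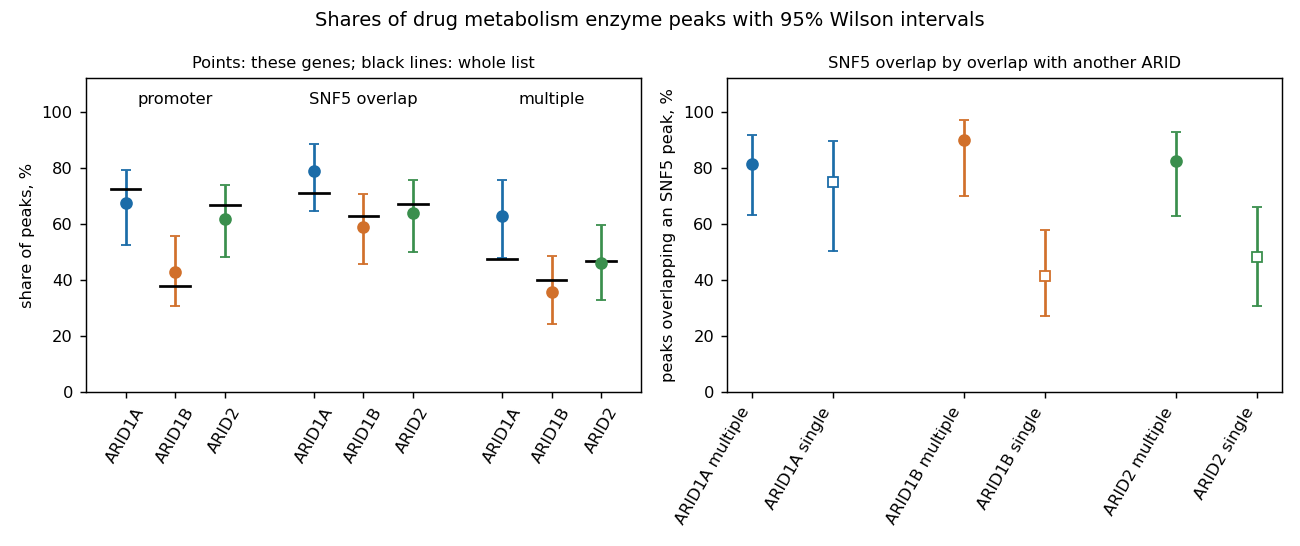
Left, share of member peaks (%) in the promoter class, overlapping SNF5 and overlapping another ARID, for each list, with 95% Wilson intervals; black lines are the whole lists. Right, share of member peaks (%) overlapping SNF5 for multiple (filled) and single (open) peaks. Whole-list shares lie within the intervals of the members except for ARID1A multiple peaks (62.8% beside 47.6%), and the ARID1B points for multiple and single peaks stand apart at 90% and 41.7%.

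The 109 regions were also sorted by which ARIDs they held, counting member peaks only. The 25247 regions of all genes merged every peak, so the shares were not counted in the same way. Regions at ALDH16A1 and ALDH3A2, counted as ARID1A alone, overlapped an ARID2 and an ARID1B peak recorded under PIH1D1 and SNORA31. Single member peaks, which overlap no other ARID peak of any gene, numbered 16 for ARID1A, 36 for ARID1B and 27 for ARID2. ARID1B alone accounted for 36 (33%), ARID2 alone for 27 (24.8%) and ARID1A alone for 18 (16.5%), beside 20.7%, 27.3% and 26.7% of the 25247 regions of all genes. ARID1A with ARID2 held 9 regions, all at promoters (8.26%, beside 12.5%), and ARID1A with ARID1B held 6 (5.5%, beside 3.17%). ARID1B with ARID2 held 5 (4.59%, beside 2.12%), and all 3 ARIDs held 8 (7.34%, beside 7.55%). With overlapping peaks recorded under other genes, the region at CYP51A1 and a region at GSTA4 held all 3 ARIDs as well. They are counted here with ARID1A and ARID1B, and with ARID1B and ARID2. SNF5 overlapped 15 of the 36 regions of ARID1B alone and 14 of the 18 of ARID1A alone.

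Because a nearest-gene column can name a neighbour, the peaks were also placed by gene body. Of 136 protein-coding genes in the reference annotation that fit the same names, 37 (27.2%) had an ARID1A peak within 5000 bp of the gene, beside 44.1% of all 20133 protein-coding genes. For ARID1B it was 34 (25%), beside 23.8%, for ARID2 47 (34.6%), beside 39.9%, and for SNF5 63 (46.3%), beside 52.7%. No peak of any of the 4 proteins was near 65 of the 136 (47.8%), beside 40.4% of all genes. An ARID peak of any kind was near 64 of the 136 (47.1%), beside 53.5% of all genes. By family it was 14 of 19 ALDH genes, 8 of 13 SULT, 11 of 22 UGT, 9 of 20 other CYP, 3 of 7 ADH, 7 of 18 GST, 4 of 12 CYP4 and 8 of 25 CYP1 to CYP3 genes, and these shares were not tested against each other. The UGT count includes the 9 UGT1A genes that share 1 peak. Neighbouring genes of these families share peaks, so the counts are not independent.

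There were 46 peaks near these 136 genes that were recorded under other names. CYP8B1, the sterol 12-hydroxylase that sets the ratio of bile acids, had 1 ARID1A and 2 ARID1B peaks near it, recorded under CCBP2 and RP11-70C1.3. CYP27B1, which activates vitamin D, had an ARID1A peak of 633 bp and an ARID2 peak of 290 bp recorded under METTL1. The ARID2 peak of 404 bp at the CYP51A1 start was recorded under a non-coding gene, so CYP51A1, listed for ARID1A and ARID1B, had all 3 ARIDs by position.

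An SNF5 peak and no ARID peak was found near 7 of the 136 genes (5.15%), beside 6.05% of all genes: ALDH3A1, CYP1A1, CYP24A1, SULT1B1, UGT2A3, UGT2B10 and UGT2B17. At CYP1A1, the enzyme induced by dioxin and smoke through the AHR receptor, the SNF5 peak was 165 bp with a score of 32, 1542 bp into the gene (chr15:75016253-75016417). At UGT2B10, which conjugates nicotine, it was 1155 bp with a score of 23 at the gene start.

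Sequence was compared in 300 bp around the centre of each peak, with every list's peaks counted. Promoter members had a median GC content of 62.3% for ARID1A, 54.2% for ARID1B and 60.7% for ARID2, beside 66.7%, 62.3% and 61.3% of all promoter peaks. The GC box letters GGGCGG were in 33 of 84 promoter members (39.3%), beside 57% of all promoter peaks. The AP-1 letters TGANTCA were in 10 (11.9%), beside 4.81%, and the TATA box letters TATAAA in 10 (11.9%), beside 5.3%. By list, the AP-1 letters were in 1 of 29 ARID1A promoter members (3.45%, beside 4.41%), 6 of 24 for ARID1B (25%, beside 5.78%) and 3 of 31 for ARID2 (9.68%, beside 4.86%). Promoter members thus had a lower median GC content than all promoter peaks in each of the 3 lists, by the least for ARID2.

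The AHR core GCGTG was in 27 promoter members (32.1%), beside 46.6%, and the antioxidant response letters TGACNNNGC in 10 (11.9%), beside 13.9%. Among the 65 other members, AP-1 letters were in 10 (15.4%), beside 11.7%, forkhead letters TGTTTAC in 5 (7.69%), beside 7.26%, and HNF4 letters CAAAGTCCA in 2 (3.08%), beside 2%. HNF1 letters GTTAAT were in 6 (9.23%), beside 9.66%, and the antioxidant response letters in 9 (13.8%), beside 13.2%. The GC box letters were in 2 of these 65 (3.08%), beside 16.7%, and the AHR core in 8 (12.3%), beside 25.2%. TATA box letters were in 12 (18.5%), beside 13.2%. Letters were searched on both strands, peaks that overlap between lists were counted in each, and a match is a description of the sequence and not a binding site.

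Genes that regulate or complete the pathway were counted from lists of names by recorded nearest gene, for which the share of all protein-coding names was 40.8%. That share can be too low, because a gene named differently in the deposited lists and the reference annotation counts as having no peak. By position, a different measure, 53.5% of protein-coding genes had an ARID peak within 5000 bp. Of 15 regulators, 12 had a peak in any ARID list, and AHR, RXRA, CEBPB, FOXA1 and FOXA2 had peaks in all 3. Of NR1I2 and NR1I3, the drug-sensing receptors PXR and CAR, neither had a peak. Of 26 other phase I genes 16 had a peak, among them POR, the electron donor of the microsomal CYPs, with 5 ARID1A, 4 ARID1B and 3 ARID2 peaks. NQO1, a quinone reductase, had 3, 4 and 5. Of 17 other phase II and cofactor genes 10 had a peak, among them UGDH, which makes UDP-glucuronic acid, with 7, 1 and 5 peaks, and GCLC, of glutathione synthesis, with 3, 3 and 6. Of 16 transporters 11 had a peak, among them the export pump ABCC3 with 5, 2 and 3.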

How the data were processed

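ChIP-seq was done on HepG2 cells with 4 antibodies, 2 samples each, and 1 input (9 libraries). Per the study's methods, the authors aligned single-end reads of 50 bases to hg19 with Bowtie2, removed duplicates, merged the 2 samples of each antibody, called broad peaks with MACS2, joined nearby peaks, removed blacklisted regions and took nearest genes and feature classes from Gencode. Whether the input was the control in peak calling is not given in the sources used here. The deposited ARID lists hold peak positions, class, distance to the TSS and gene; the deposited SNF5 list holds positions and a peak score, which was used only to order peaks. Read depth and peak heights are not in these lists, so depth is unknown and the precision of single peaks cannot be given.

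Member peaks were chosen by gene name, and the members and gene lists were chosen with earlier results of these data known. Overlap needed 1 shared bp. Two-sided Fisher exact tests with Benjamini-Hochberg adjustment over 3 tests, and Wilson intervals at 95%, were made with scipy 1.17.1 (pandas 2.3.3, Python 3.11.15). Intervals cover counting error only. Named genes were those in all 3 lists, those with most peaks per family, the widest and highest-scoring peaks, and 30 pharmacogenes. Others were named after their values were seen. Annotation was Gencode v44 lifted to GRCh37, and no peak passed a chromosome end there. Reads of 50 bases were called unique when they matched 1 place of the primary assembly, either strand. A few items are not reported here. Alternatives were other overlap and promoter definitions, gene subsets and joined peaks. The tests were checked on simulated independent draws in groups of equal size, which does not cover peaks that share loci or groups of unequal size. The deposited chromatin-state column was not used: overlapping peaks of 2 lists had the same state in 38.3% to 51.4% of pairs, against 97.3% to 98.2% for the class, and the cause was not tested.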

Additional observations from a re-analysis of the deposited data

How the results depend on the processing

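No paired analysis was possible because peaks were called on merged samples, and for the same reason no replicate could be left out. Of 195 recomputed values, 165 did not change: tests kept their direction and side of the threshold, shares stayed within the reported Wilson interval, and counts stayed within 1.5 times. Some of them could not change. The deposited label equals the overlap call for every member, so that setting repeats the reported values, and joining peaks keeps the count of gene names. With a reciprocal overlap of 50%, SNF5 overlap of ARID1A, ARID1B and ARID2 members fell to 9.3%, 5.36% and 6%, and multiple shares to 20.9%, 12.5% and 24%; the multiple against single log2 odds ratio turned to -0.18 for ARID1B and was 0.71, no longer passing, for ARID2. SNF5 peaks are wider than ARID peaks, which limits this setting. With gaps up to 1000 bp allowed, SNF5 overlap was 75% for ARID1B and 84% for ARID2, and multiple shares were 79.1%, 53.6% and 72%. With a TSS distance of 500 bp in place of the class, the promoter log2 odds ratios passed at 1.83 (ARID1A against ARID1B) and -1.31 (ARID1B against ARID2), and with joined peaks the first passed at 1.70. For ARID1A, SNF5 overlap at promoters against other classes, 0.06 as reported, turned to -0.31 and -1.53 with distances of 500 and 5000 bp, -0.12 for protein-coding names, -0.17 with joined peaks, -0.07 without CYP27A1 and -0.21 without peaks lacking unique reads, never passing the test. For multiple against single, peaks within 5000 bp gave 3.31 (ARID1B) and 2.75 (ARID2), neither passing. For ARID2 the call was also lost without the ALDH family (1.71), CYP24A1 (2.19) or peaks lacking unique reads (2.13, added after seeing the data), and ARID1A turned to -0.58 without the ALDH family. ARID1B had 31 peaks within 5000 bp, and ARID1A 28 without the ALDH family. CYP24A1 and CYP27A1 tied for the most peaks, and each was left out in turn.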
